A study of Mus musculus with 8 samples.

Results

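Small leucine-rich proteoglycans are secreted matrix proteins built around a curved stack of leucine-rich repeats, which most of them use to bind collagen. The family was followed here in the newborn aorta with and without lysyl oxidase (Lox), the enzyme that starts the cross-linking of collagen and elastin. Its 10 genes on the array were taken by gene symbol from the platform table: Dcn, Bgn, Aspn, Ecm2, Fmod, Lum, Prelp, Omd, Ogn and Podn. They were covered by 13 probe sets, since Bgn, Fmod and Prelp had a further one each, and all 10 were among the 16635 genes tested, of 22180 with a probe set of their own.

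RNA was taken from 4 groups of mouse pups at p0 on an albino C57BL/6J background: Lox KO ascending aorta, WT ascending aorta, Lox KO descending aorta and WT descending aorta. The ascending segment ran from the aortic valve as far as the ductus arteriosus, and the descending segment lay between the vena cava and the diaphragm. Each group had 2 arrays, and each array held RNA pooled from 8 pups, so a p-value here measures the spread between pools and not between animals. The labels give the pups only as knockout or wild type, so the whole animal and every cell of the vessel is taken to share the genotype, and the construct of the allele is not described there.

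Family members coat collagen fibrils and set how wide they grow and how they are spaced, and several also hold growth factors of the TGF-beta family in the matrix. Decorin, biglycan and asporin form class I, of which decorin and biglycan carry chondroitin or dermatan sulfate chains. Fibromodulin, lumican, PRELP and osteomodulin form class II, whose sugar chains, where present, are of keratan sulfate, and osteoglycin belongs to class III. In biochemical work fibromodulin binds both collagen and lysyl oxidase. In the arterial wall these proteins are made by smooth muscle cells and adventitial fibroblasts, and mice without biglycan can die of aortic rupture.

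Many of these genes lie side by side in the genome. In the RefSeq order Ecm2, Aspn, Omd and Ogn follow one another on chromosome 13, Prelp and Fmod are adjacent on chromosome 1, and Dcn and Lum are adjacent on chromosome 10. Bgn lies on chromosome X and Podn on chromosome 4. The 250 bases before the transcription start are given for the 2 genes that rose in KO aorta and the 2 that fell. They are RefSeq sequences of build GRCm38.p6, 5′ to 3′ on the gene's own strand. Fmod lies on the plus strand at chr1:134037004-134037253, Prelp on the minus strand at chr1:133921402-133921651, Ecm2 on the plus strand at chr13:49504560-49504809 and Aspn on the plus strand at chr13:49544193-49544442. Capitals mark CAGAC, the SMAD-binding element of TGF-beta signalling, or TATAAA, the letters of the TATA box, read on either strand and at any position.
Fmod: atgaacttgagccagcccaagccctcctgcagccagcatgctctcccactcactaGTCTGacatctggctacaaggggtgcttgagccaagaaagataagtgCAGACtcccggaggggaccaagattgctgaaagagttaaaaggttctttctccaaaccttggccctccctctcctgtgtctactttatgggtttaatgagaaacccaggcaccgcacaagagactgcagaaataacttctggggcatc
Prelp: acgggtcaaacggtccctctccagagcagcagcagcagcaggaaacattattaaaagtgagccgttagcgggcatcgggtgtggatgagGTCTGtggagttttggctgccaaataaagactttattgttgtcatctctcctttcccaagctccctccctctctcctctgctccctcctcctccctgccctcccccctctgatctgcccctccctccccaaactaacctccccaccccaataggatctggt
Ecm2: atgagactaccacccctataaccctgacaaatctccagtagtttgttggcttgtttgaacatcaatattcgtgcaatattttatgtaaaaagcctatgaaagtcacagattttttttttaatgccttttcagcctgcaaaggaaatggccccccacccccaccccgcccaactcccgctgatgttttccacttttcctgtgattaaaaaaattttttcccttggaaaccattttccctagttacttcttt
Aspn: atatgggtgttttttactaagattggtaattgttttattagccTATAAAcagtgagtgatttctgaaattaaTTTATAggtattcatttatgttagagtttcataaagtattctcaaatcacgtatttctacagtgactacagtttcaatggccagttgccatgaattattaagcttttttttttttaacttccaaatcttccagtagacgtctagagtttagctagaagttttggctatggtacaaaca
The windows of the adjacent pair Fmod and Prelp hold CAGAC, at 195 and 148 bases before the start in Fmod and at 161 bases before it in Prelp. CAGAC occurs in 42.2% of all 32851 promoter windows, so its presence in both is a description and no more. Ecm2 holds none of the motifs searched, which also included CATTCC, the MCAT box of muscle genes (12.6% of windows). Aspn holds TATAAA at 207 and 178 bases before the start, a motif found at any position on either strand in 12.4% of windows. These are matches of letters far from the start and do not show a TATA box in use. Among the members not printed, Ogn also holds TATAAA, at 229 and 227 bases, and CATTCC at 86 bases. Bgn, Omd and Podn hold none of these motifs, and no window was available for Dcn and Lum. The GC content of the windows was 51.2% for Fmod, 55.6% for Prelp, 40.0% for Ecm2 and 30.0% for Aspn, against a median of 52.4% over all windows.

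The arrays were alike in scale, with medians of 5.11 to 5.19 log2 units. Lox gave 8.87 and 8.74 log2 units in KO ascending aorta, against 11.47 and 11.60 in WT ascending aorta, and 8.56 and 8.51 in KO descending aorta, against 11.41 and 11.24 in WT descending aorta. It had the smallest p of all genes in both segments, and every array went with its genotype label, although where the probes lie relative to the deletion is not given. Smooth muscle markers (10 genes) averaged 9.98 to 10.14 log2 units over all arrays, and none of them passed the test between KO and WT (limma; 2 at an unadjusted p under 0.05 in the ascending segment, 1 in the descending). Among markers of other tissues, some were called between KO and WT. The share of all genes called was 2.74% in the ascending and 2.28% in the descending segment. Of 10 endothelial genes 2 fell in the ascending and 1 in the descending segment, with median differences of -0.32 and -0.34 log2 units. Of 8 macrophage genes 2 rose in the descending segment (median 0.23). None of the 8 passed in the ascending segment (limma, 2 at an unadjusted p under 0.05, median 0.16). Of 8 liver genes 6 rose in the descending segment, where their mean was 7.23 to 8.59 in KO aorta, against 5.52 to 6.00 in WT aorta, and none passed in the ascending segment (limma; 2 at an unadjusted p under 0.05), where it was 6.77 to 6.85 in KO aorta, against 6.24 to 6.32 in WT aorta. Of 9 neutrophil genes tested 5 rose in the ascending segment, where the mean over the list was 6.46 to 6.58 in KO aorta, against 5.01 to 5.54 in WT aorta, and none passed in the descending segment (limma; 5 at an unadjusted p under 0.05), where it was 6.00 to 6.42 in KO aorta, against 5.42 to 5.67 in WT aorta. Of 8 fat genes 3 fell in the ascending and 1 in the descending segment, with median differences of -0.81 and -0.56 log2 units and a descending mean of 7.43 to 7.80 in KO aorta, against 8.24 to 8.50 in WT aorta. Of 8 lung epithelium genes 2 fell in the descending segment, where the mean was 4.79 to 4.85 in KO aorta, against 5.96 to 6.37 in WT aorta, and none passed in the ascending segment (limma; 1 at an unadjusted p under 0.05). Of 4 erythroid genes 1 rose in the ascending segment, where the mean was 5.48 to 5.73 in KO aorta, against 4.99 on both WT arrays. The part of these tissues in the results below was not tested. In bulk RNA of this kind, fewer cells of a type and less RNA per cell cannot be told apart.

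The first question was which members differ between Lox KO and WT aorta. Averaged over both segments, Fmod and Prelp rose in KO aorta, Ecm2 and Aspn fell, and the other 6 members did not pass the test (limma, adjusted p under 0.05 over all genes tested). The share of all genes called in that comparison was 11.4% (6.21% higher and 5.22% lower in KO), beside 4 of 10 members (2 higher and 2 lower). In the ascending segment 2 members passed, Fmod upward and Ecm2 downward, beside 2.74% of all genes (1.54% higher and 1.19% lower). In the descending segment 3 passed, Fmod and Prelp upward and Ecm2 downward, beside 2.28% of all genes (1.46% higher and 0.824% lower). With 2 arrays against 2, KO and WT arrays did not overlap for 8 members in the ascending and 7 in the descending segment, beside 49.5% and 51.1% of all genes. Over all 8 arrays they did not overlap for 6 members, beside 17% of all genes. The median KO minus WT difference of the 10 members was -0.04 log2 units in the ascending and -0.07 in the descending segment, against 0.01 and -0.01 over all genes. The median absolute difference of the members was 0.28 in the ascending and 0.23 in the descending segment, against 0.15 in each over all genes.

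**Figure D1:**
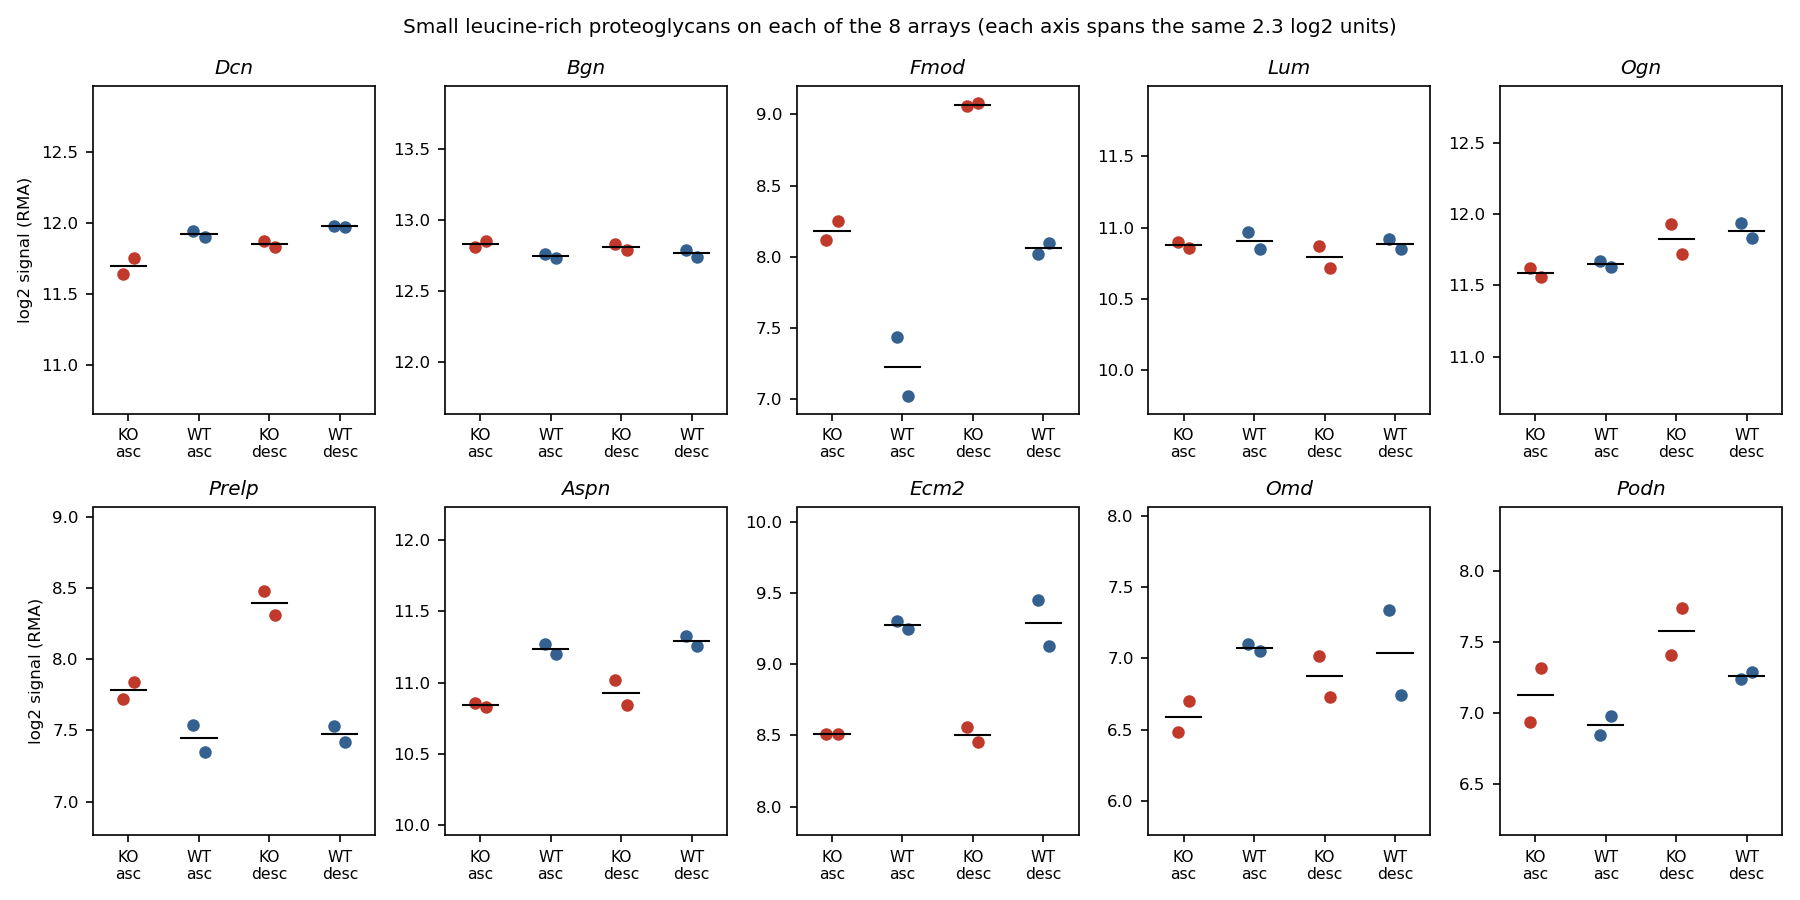
The log2 signal of each of the 10 small leucine-rich proteoglycan genes (1 panel a gene) is plotted for every array, with KO left of WT in each segment, and 2 points a group. Fmod and Prelp sit higher in KO than in WT, Ecm2 and Aspn sit lower, and for Bgn, Lum and Ogn the KO and WT points lie close together.

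Fmod encodes fibromodulin, which binds collagen I fibrils during their assembly. It gave 8.12 and 8.25 log2 units in KO ascending aorta, against 7.44 and 7.02 in WT ascending aorta. In the descending segment it gave 9.06 and 9.08 in KO aorta, against 8.02 and 8.10 in WT aorta. Every KO array was above both WT arrays of its segment. It rose by 0.96 ± 0.14 log2 units (SE; 1.94-fold, 95% interval 0.63 to 1.28, adjusted p = 0.0164) in KO ascending aorta. The rise in KO descending aorta was 1.01 ± 0.14 (2.02-fold, 0.69 to 1.33, adjusted p = 0.0164), and averaged over segments it was 0.98 ± 0.10 (1.98-fold, adjusted p = 0.00175). The order of the group means was KO descending at 9.07, KO ascending at 8.18, WT descending at 8.06 and WT ascending at 7.23, of which the middle pair was not compared. The further Fmod probe set was higher in KO aorta by 0.74 in the ascending and by 0.87 in the descending segment. Within a single segment the call depended on having all arrays: in the ascending segment it was lost without KO replicate 1, KO replicate 2 or WT replicate 2 (0.75 to 1.02, adjusted p from 0.0691 to 0.0779) or with only the ascending arrays in the fit (adjusted p = 0.0695), and in the descending segment without any of its 4 arrays (0.97 to 1.05, adjusted p from 0.0768 to 0.13).

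Prelp encodes the proline- and arginine-rich end leucine-rich repeat protein, whose basic tail binds heparan sulfate and which is thought to link basement membranes to collagen. It gave 7.72 and 7.84 log2 units in KO ascending aorta, against 7.54 and 7.35 in WT ascending aorta. In the descending segment it gave 8.48 and 8.31 in KO aorta, against 7.53 and 7.42 in WT aorta. KO and WT arrays did not overlap in either segment, and the KO descending arrays stood above all others. Prelp rose by 0.92 ± 0.12 log2 units (SE; 1.90-fold, 95% interval 0.65 to 1.19, adjusted p = 0.0125) in KO descending aorta and by 0.63 ± 0.08 averaged over segments (1.55-fold, adjusted p = 0.00479). In the ascending segment the difference of 0.34 ± 0.12 did not pass (0.07 to 0.61, adjusted p = 0.169). Its further, dimmer probe set gave 5.86 and 5.94 in KO ascending aorta, against 5.95 and 5.70 in WT ascending aorta, and 6.45 and 6.31 in KO descending aorta, against 5.84 and 6.05 in WT descending aorta. On that probe set neither call held: the difference was 0.43 in the descending segment (adjusted p = 0.122) and 0.26 averaged over segments (adjusted p = 0.109). On the probe set used, the descending call was also lost without KO replicate 1, WT replicate 1 or WT replicate 2 (0.84 to 0.98, adjusted p from 0.0734 to 0.0865). Markers of cartilage and tendon, tissues where fibromodulin and PRELP are abundant, averaged 5.94 to 6.03 log2 units in KO descending aorta, against 5.85 to 6.02 in WT descending aorta, and 5.96 to 6.02 in KO ascending aorta, against 5.82 to 5.96 in WT ascending aorta. None of the 9 that were tested passed in either segment (limma; 1 at an unadjusted p under 0.05 in each). Their median difference was 0.14 log2 units in the ascending and 0.12 in the descending segment, against 0.01 and -0.01 over all genes. The part of these tissues in the rise of Fmod and Prelp was not tested.

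Ecm2 encodes extracellular matrix protein 2, a leucine-rich repeat protein close to class I. It gave 8.51 and 8.51 log2 units in KO ascending aorta, against 9.30 and 9.25 in WT ascending aorta. In the descending segment it gave 8.56 and 8.45 in KO aorta, against 9.45 and 9.13 in WT aorta. All 4 KO arrays were below all 4 WT arrays. Ecm2 fell by 0.76 ± 0.12 log2 units in KO ascending aorta (SE; 1.70-fold lower, 95% interval -1.05 to -0.48, adjusted p = 0.0211). It fell by 0.79 ± 0.12 in KO descending aorta (1.73-fold lower, -1.07 to -0.51, adjusted p = 0.0258) and by 0.78 ± 0.09 averaged over segments (1.71-fold lower, adjusted p = 0.00249). The ascending call was lost without any 1 of the 4 ascending arrays (-0.74 to -0.79, adjusted p from 0.0828 to 0.105), and the descending call without KO replicate 1, KO replicate 2 or WT replicate 1 (-0.63 to -0.84, adjusted p from 0.0925 to 0.146). With only the arrays compared in the fit, both were lost (adjusted p = 0.0524 in the ascending and 0.0725 in the descending segment).

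Aspn encodes asporin, which carries a run of aspartates in place of a sugar chain and binds both collagen and TGF-beta. It gave 10.86 and 10.83 log2 units in KO ascending aorta, against 11.27 and 11.20 in WT ascending aorta. In the descending segment it gave 11.02 and 10.84 in KO aorta, against 11.33 and 11.26 in WT aorta. Again all 4 KO arrays were below all 4 WT arrays. The differences of -0.39 ± 0.11 in the ascending segment (adjusted p = 0.0926) and -0.37 ± 0.11 in the descending segment (adjusted p = 0.11) did not pass alone, and averaged over segments Aspn fell by 0.38 ± 0.07 (SE; 1.30-fold lower, 95% interval -0.55 to -0.21, adjusted p = 0.0161). That call was lost without WT descending replicate 1 (-0.36, adjusted p = 0.0629) or KO descending replicate 2 (-0.34, adjusted p = 0.0502). With a trended robust prior Aspn passed in each segment alone (adjusted p = 0.00891 in the ascending and 0.0127 in the descending segment).

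Omd and Ogn complete the chromosome 13 cluster. Omd encodes osteomodulin, a keratan sulfate proteoglycan best known from bone. It gave 6.48 and 6.70 log2 units in KO ascending aorta, against 7.10 and 7.05 in WT ascending aorta, and 7.02 and 6.73 in KO descending aorta, against 7.34 and 6.74 in WT descending aorta. The ascending arrays did not overlap and the descending arrays did. The differences were -0.48 ± 0.19 (adjusted p = 0.224) and -0.16 ± 0.19 (adjusted p = 0.707). Ogn encodes osteoglycin, also called mimecan. It gave 11.62 and 11.56 in KO ascending aorta, against 11.67 and 11.63 in WT ascending aorta, and 11.93 and 11.72 in KO descending aorta, against 11.94 and 11.83 in WT descending aorta. Its ascending arrays did not overlap and its descending arrays did. Its difference was -0.06 ± 0.11 in each segment (95% interval -0.31 to 0.19 in both), so a KO fall as large as that of Ecm2 lies outside the interval. Along this cluster the difference averaged over segments was therefore -0.78 for Ecm2, -0.38 for Aspn, -0.32 for Omd (adjusted p = 0.169) and -0.06 for Ogn (adjusted p = 0.668). The gene Cenpp, for a centromere protein, spans Ecm2, Aspn, Omd and Ogn in the RefSeq annotation. Its difference was -0.29 averaged over segments (adjusted p = 0.097), -0.41 in the ascending segment (adjusted p = 0.159) and -0.17 in the descending segment (adjusted p = 0.563).

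**Figure D2:**
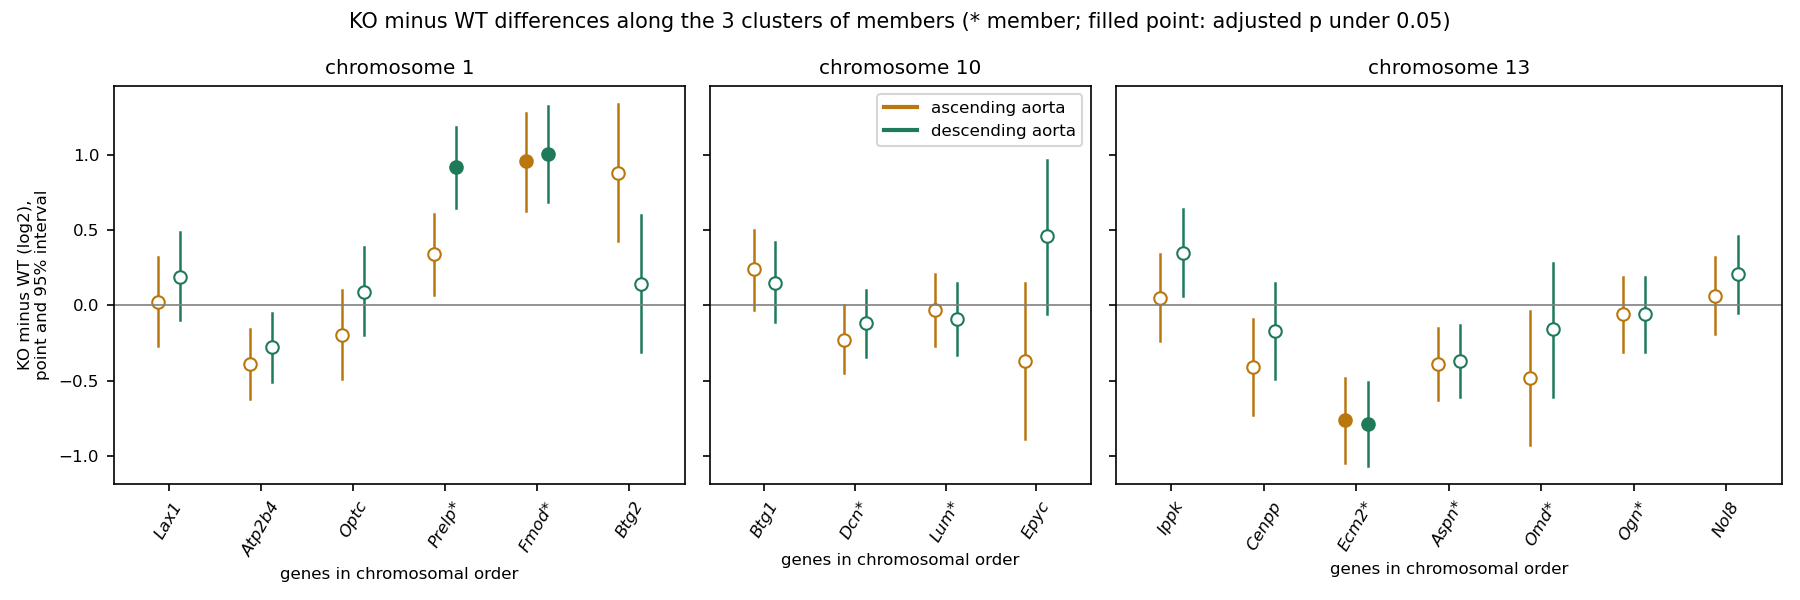
KO minus WT log2 difference with its 95% interval in each segment, for the members on chromosomes 1, 10 and 13 and some of their tested RefSeq neighbours, in chromosome order. Bgn and Podn are not shown. Ecm2 and Aspn lie below 0 and Ogn close to it in the chromosome 13 cluster, and Prelp and Fmod lie above 0 on chromosome 1, between Optc at -0.20 in the ascending and 0.09 in the descending segment and Btg2 at 0.88 (adjusted p = 0.0584) and 0.14 (adjusted p = 0.752).

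Dcn, Bgn and Lum, the members most often named as fibril regulators of soft tissue, gave no call between KO and WT, although with a trended robust prior Dcn passed in the ascending segment (-0.23, adjusted p = 0.0378) and averaged over segments (-0.17, adjusted p = 0.013). Dcn encodes decorin, which binds collagen fibrils and TGF-beta. It gave 11.64 and 11.75 log2 units in KO ascending aorta, against 11.94 and 11.90 in WT ascending aorta, and 11.87 and 11.83 in KO descending aorta, against 11.98 and 11.97 in WT descending aorta. All 4 KO arrays were below all 4 WT arrays, with differences of -0.23 ± 0.10 (95% interval -0.45 to -0.00, adjusted p = 0.253) and -0.12 ± 0.10 (-0.34 to 0.10, adjusted p = 0.559). Bgn encodes biglycan, the close relative of decorin. It gave 12.81 and 12.85 in KO ascending aorta, against 12.76 and 12.73 in WT ascending aorta, and 12.83 and 12.79 in KO descending aorta, against 12.79 and 12.74 in WT descending aorta. The KO arrays lay just above the WT arrays of their segment. The differences were 0.09 ± 0.09 (-0.13 to 0.30, adjusted p = 0.681) and 0.05 ± 0.09 (-0.17 to 0.26, adjusted p = 0.842). Bgn was measured near the top of the array's range, with 20 probe sets above its mean and array maxima of 13.49 to 13.61, where a change in RNA can be compressed. Lum encodes lumican, a keratan sulfate proteoglycan best known for the order of corneal collagen. It gave 10.90 and 10.86 in KO ascending aorta, against 10.97 and 10.85 in WT ascending aorta, and 10.87 and 10.72 in KO descending aorta, against 10.92 and 10.85 in WT descending aorta. The groups overlapped in both segments, with differences of -0.03 ± 0.11 (-0.27 to 0.21, adjusted p = 0.926) and -0.09 ± 0.11 (-0.33 to 0.15, adjusted p = 0.706). For Dcn, Bgn and Lum these intervals leave out a 2-fold change of signal in either direction. For Bgn this does not carry over to RNA, given the possible compression.

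Podn encodes podocan, a more distant member that restrains smooth muscle cell growth in mouse artery. It gave 6.94 and 7.32 log2 units in KO ascending aorta, against 6.85 and 6.98 in WT ascending aorta, and 7.41 and 7.74 in KO descending aorta, against 7.24 and 7.29 in WT descending aorta. KO and WT overlapped in the ascending segment only, and the KO arrays of each segment lay farther apart than the WT arrays. The differences of 0.21 ± 0.16 (adjusted p = 0.52) and 0.30 ± 0.16 (adjusted p = 0.341) did not pass.

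**Figure D3:**
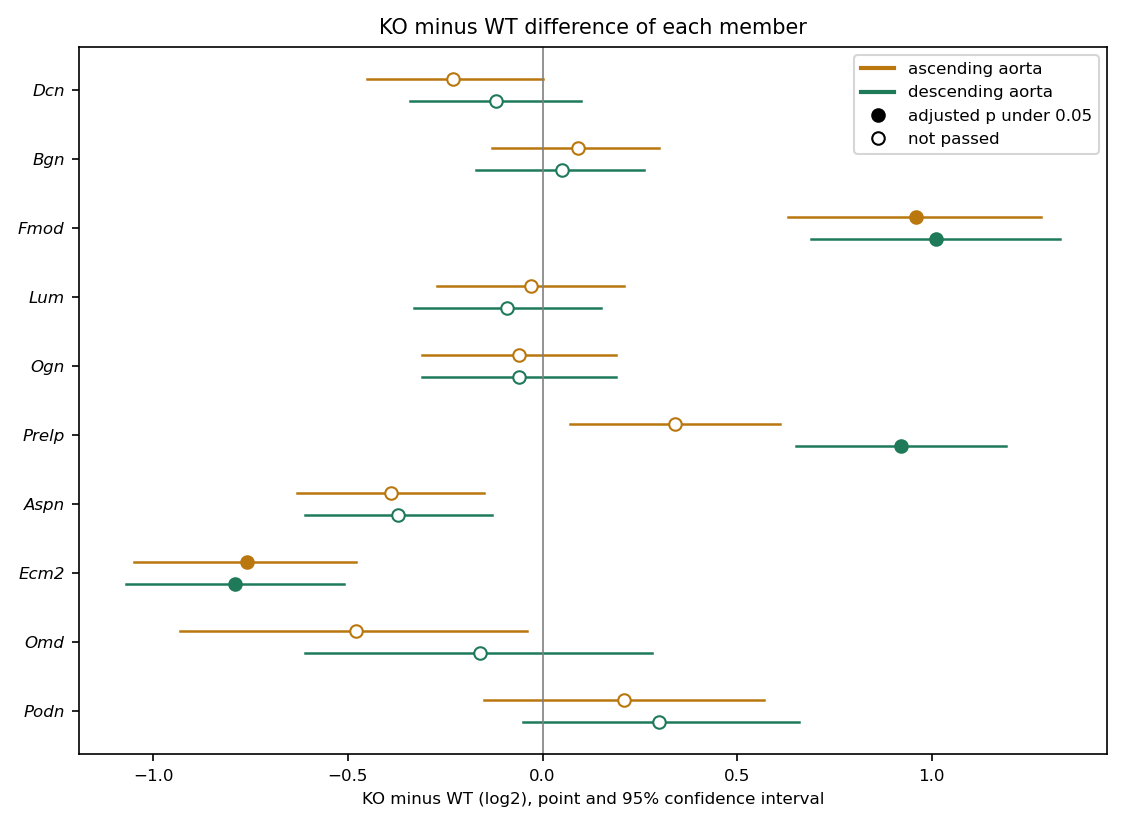
KO minus WT log2 difference of each member with its 95% interval, ascending and descending. Fmod lies at 0.96 and 1.01, Ecm2 at -0.76 and -0.79, and Prelp at 0.34 and 0.92.

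Most of the 11 adventitial fibroblast markers did not pass the test between KO and WT. Of the 11, 2 fell and none rose in the ascending segment, beside 1.19% of all genes lower, and 2 fell and 1 rose in the descending segment, beside 0.824% lower and 1.46% higher. In KO ascending aorta Dpt fell by 0.55 (adjusted p = 0.0449) and Pdgfra by 0.60 (adjusted p = 0.0466). In KO descending aorta Dpt fell by 0.65 (adjusted p = 0.0331), Tcf21 fell by 0.55 (adjusted p = 0.0465), and Pi16 rose by 0.53 (adjusted p = 0.0479). The median difference of the 11 was -0.12 log2 units in the ascending and -0.02 in the descending segment, against 0.01 and -0.01 over all genes. Their mean level was 9.13 to 9.25 log2 units in KO ascending aorta, against 9.34 to 9.35 in WT ascending aorta, and at most 9.02 in KO descending aorta, against 9.05 to 9.15 in WT descending aorta. The part of fibroblast RNA in the fall of Ecm2 and Aspn was not tested.

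The second question was whether members differ between the ascending and the descending segment. Fmod fell in ascending relative to descending aorta in both genotypes. In WT aorta it gave 7.44 and 7.02 log2 units in the ascending segment, against 8.02 and 8.10 in the descending segment, a difference of -0.83 ± 0.14 (SE; 1.78-fold lower, adjusted p = 0.0291). In KO aorta it gave 8.12 and 8.25 in the ascending segment, against 9.06 and 9.08 in the descending segment, a difference of -0.89 ± 0.14 (1.85-fold lower, adjusted p = 0.0224). Fmod was the 1 member called in WT aorta, beside 1.48% of all genes (0.974% lower in the ascending segment), and 1 of 2 called in KO aorta, also beside 1.48% (0.938% lower). The WT call was lost without WT ascending replicate 2 (-0.63, adjusted p = 0.0864) or either WT descending array (-0.88 and -0.79, adjusted p = 0.142 and 0.177) or with only the WT arrays in the fit (adjusted p = 0.0765), and the KO call without any of the 4 KO arrays (-0.83 to -0.95, adjusted p from 0.0837 to 0.143). Averaged over genotypes the difference was -0.86 ± 0.10 (1.82-fold lower, adjusted p = 0.00231), the only member called there beside 4.07% of all genes (2.57% lower). Some marker genes were also called between the segments averaged over genotypes. In the ascending segment 6 of 8 fat genes (median -1.07 log2 units), 4 of 5 Schwann cell and neuron genes (median -0.83) and 5 of 10 endothelial genes (median -0.26) fell. So did 1 of 8 cardiac muscle genes (median -0.75), 1 of 8 lung epithelium genes (median -0.46) and 1 of 8 macrophage genes (median -0.29). In the other direction 2 of 10 smooth muscle genes (median 0.02), 1 of 11 adventitial fibroblast genes (median -0.02) and 1 of 6 mesothelium genes (median -0.05) rose. Among the cartilage and tendon markers 1 rose and 1 fell of 9 (median 0.10). The part of these tissues in the segment difference of Fmod was not tested.

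Prelp was the other member called in KO aorta, with 7.72 and 7.84 log2 units in the ascending segment, against 8.48 and 8.31 in the descending segment. It fell by 0.62 ± 0.12 in KO ascending aorta (SE; 1.53-fold lower, 95% interval -0.89 to -0.35, adjusted p = 0.0466). This call was lost under 13 of 17 other settings, each of the 4 KO arrays left out among them (adjusted p from 0.0563 to 0.236). In WT aorta the arrays overlapped, with 7.54 and 7.35 in the ascending segment, against 7.53 and 7.42 in the descending segment, and the difference was -0.03 (adjusted p = 0.958). For Podn the ascending minus descending difference was -0.44 in KO aorta (adjusted p = 0.291) and -0.35 in WT aorta (adjusted p = 0.419), and for Ogn it was -0.24 in KO aorta (adjusted p = 0.449) and -0.23 in WT aorta (adjusted p = 0.442).

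**Figure D4:**
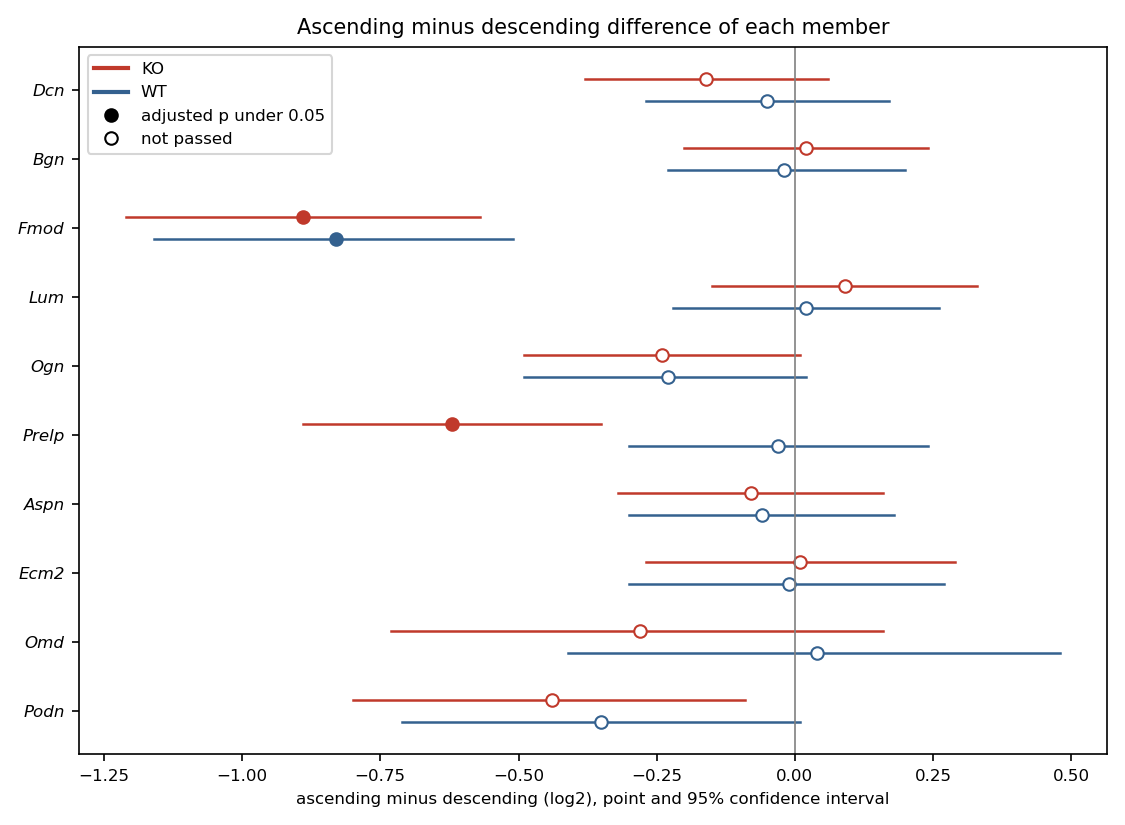
Ascending minus descending log2 difference of each member with its 95% interval, in KO and in WT aorta. Fmod lies at -0.89 in KO and -0.83 in WT, while Prelp lies at -0.62 in KO and -0.03 in WT.

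Whether the genotype effect differs between segments was tested by the interaction term. No member passed, and of all 16635 genes tested 0% were called (limma). Prelp was the 1 member at an unadjusted p under 0.05: its KO minus WT difference was lower in the ascending than in the descending segment by 0.59 ± 0.17 log2 units (SE; 95% interval of the difference -0.97 to -0.20, unadjusted p = 0.00746, adjusted p = 0.775). For Fmod the interaction was -0.06 (adjusted p = 0.99).

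Genes that work with the family were read from lists. None of 6 further small leucine-rich proteoglycans passed the test between KO and WT in either segment or averaged over them (limma; 1 at an unadjusted p under 0.05 in the ascending segment, 0 otherwise), and their median averaged difference was -0.05 log2 units, against 0.00 over all genes. Between KO and WT 2.74% of all genes were called in the ascending segment, 2.28% in the descending segment and 11.4% on average. Of 11 fibrillar collagens 1 was called in each of these comparisons, Col11a1, for a chain of collagen XI, which nucleates thin fibrils. It gave 7.44 and 7.57 log2 units in KO ascending aorta, against 5.61 and 5.79 in WT ascending aorta, and 8.43 and 8.30 in KO descending aorta, against 7.11 and 7.17 in WT descending aorta. It rose by 1.80 in KO ascending aorta (adjusted p = 0.000551) and by 1.22 in KO descending aorta (adjusted p = 0.00423), and like Fmod it fell in ascending relative to descending aorta, by 0.86 in KO (adjusted p = 0.0113) and by 1.44 in WT (adjusted p = 0.00125). Col1a1, for the main chain of collagen I, did not pass, at 0.26 and 0.15 in the ascending and the descending segment. With Col11a1 among them, 4 of the 11 were at an unadjusted p under 0.05 (limma) in the ascending segment, 2 in the descending segment and 4 on average. The median difference of the 11 was 0.19, 0.08 and 0.09 log2 units in that order, against 0.01, -0.01 and 0.00 over all genes. Of 7 other collagens that bind these proteoglycans 1 rose, and only on average: Col12a1, for the fibril-surface collagen XII, by 0.52 (adjusted p = 0.0121). On average 6.21% of all genes were called higher in KO aorta.

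The next lists held enzymes that build the sugar chains and proteases that cut the core proteins. Of 24 genes for chondroitin and dermatan sulfate synthesis none passed in a single segment (limma; 4 at an unadjusted p under 0.05 in the ascending and 9 in the descending segment). Averaged over segments 11.4% of all genes were called (6.21% higher and 5.22% lower). Beside them 1 of the 24 rose, Chst12, a chondroitin sulfotransferase, by 0.36 (adjusted p = 0.0205), and 2 fell. Those were Chsy3, a chondroitin synthase, by 0.41 (adjusted p = 0.0184), and Papss2, which makes the sulfate donor, by 0.69 (adjusted p = 0.0205). The median of the 24 was 0.03, against 0.00 over all genes. Of 9 genes for keratan sulfate and tyrosine sulfation none passed in either segment or on average (limma; 1, 0 and 0 at an unadjusted p under 0.05). Of 10 genes for proteases that cleave the family 1 rose on average, beside 6.21% of all genes. It was the gelatinase gene Mmp9, by 0.42 (adjusted p = 0.0413). Mmp9 gave 5.29 on both KO ascending arrays, against 4.78 and 4.92 in WT ascending aorta. In the descending segment it gave 5.53 and 5.06 in KO aorta, against 4.85 and 4.96 in WT aorta. These levels lie near the array medians of 5.11 to 5.19.

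Receptors and ligands of the family made up the last lists. Of 15 receptor genes 2 rose and 4 fell on average, beside 11.4% of all genes called (6.21% higher and 5.22% lower). In the ascending segment 1 rose and 2 fell, beside 2.74% of all genes called, and in the descending segment 1 fell, beside 2.28%. The other receptor genes called on average were Tlr2, which rose by 0.49 (adjusted p = 0.0121), and Tlr4 and Met, which fell by 0.40 (adjusted p = 0.0304) and by 0.36 (adjusted p = 0.041). Kdr, the VEGF receptor to which decorin binds, gave 6.46 and 6.67 log2 units in KO ascending aorta, against 7.20 and 7.18 in WT ascending aorta, and 7.46 and 7.41 in KO descending aorta, against 8.01 and 7.95 in WT descending aorta. It fell by 0.58 on average (adjusted p = 0.0045). Kdr is made in endothelial cells and is itself 1 of the 10 endothelial markers, so their mean includes its fall. That mean was 8.12 to 8.13 in KO ascending aorta, against 8.36 to 8.47 in WT ascending aorta. In the descending segment it was 8.43 to 8.51 in KO aorta, against 8.75 to 8.81 in WT aorta. Egfr, a receptor of decorin, fell by 0.46 (adjusted p = 0.00956), and Cd14, a co-receptor through which biglycan acts on macrophages, rose by 0.91 (adjusted p = 0.00494). The mean over 8 macrophage markers was 8.34 to 8.37 in KO ascending aorta, against 8.17 to 8.18 in WT ascending aorta, and 8.67 to 8.68 in KO descending aorta, against 8.37 to 8.48 in WT descending aorta. The part of endothelial, macrophage or neutrophil RNA in these 3 changes was not tested. Of 14 growth factor and ligand genes 3 rose and 1 fell on average, beside the same 11.4% of all genes. In the ascending segment none passed (limma, 4 at an unadjusted p under 0.05). In the descending segment 2 rose and 1 fell, beside 2.28% of all genes called. Ccn2, for connective tissue growth factor, rose by 0.61 (adjusted p = 0.00539), Tgfb3 rose by 0.53 (adjusted p = 0.0135), Bmp4 rose by 0.32 (adjusted p = 0.0368), and Bmp2 fell by 0.74 (adjusted p = 0.00771). Bmp2 was measured near the limit for dim genes of 4.11. It gave 4.86 and 4.56 in KO ascending aorta, against 5.40 and 5.34 in WT ascending aorta. In the descending segment it gave 4.27 and 3.81 in KO aorta, against 4.80 and 4.93 in WT aorta.

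The genes whose log2 profile was most like that of a member are given as a description over the 8 arrays, which fall into 4 groups, so that r largely follows the group differences. For Fmod they were Tuba1a (Pearson r = 0.986), Itga11 (0.984) and Nuf2 (0.983). For Prelp they were Rai14 (0.980), Grb10 (0.978) and Prim1 (0.978). For Ecm2 they were Erlec1 (0.996), Stk24 (0.993) and Usp3 (0.993), and for Aspn they were Ly96 (0.992), Suclg1 (0.989) and Snrk (0.983). Itga11 encodes a chain of a fibrillar collagen receptor.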

How the data were processed

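Total RNA of 8 pools of aorta was labelled with the NuGEN Ovation Pico WTA and Encore Biotin kits, per the labels' protocols, and hybridized to Affymetrix mouse gene arrays. The authors deposited log2 signals, for which the submitters' processing notes name RMA and Affymetrix Expression Console; their versions are not stated there. The platform table pairs 23521 of the 41345 probe sets with 1 gene symbol, 1814 with more than 1 and 16010 with none, and the first kind alone was used. A gene with several probe sets was represented by its brightest on average, which gave 22180 genes. Dim genes, whose mean fell under the 25th percentile (4.11 log2), were dropped, leaving 16635. Levels were not compared between genes.

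The model of limma 3.58.1 (R 4.3.3) had 1 coefficient per group over all 8 arrays, with no covariate and with eBayes (residual df 4, prior df 4.51). P-values were Benjamini-Hochberg adjusted over all genes tested, and an adjusted p under 0.05 is called. The 95% intervals use the moderated spread. The number of arrays limits the precision. The comparisons were KO against WT per segment, ascending against descending per genotype, the interaction and both averages. The steps were tested on simulated data. The members and lists were chosen with earlier results of these data known. Every member is named; of each further list at most 4 genes with the smallest averaged KO against WT p are named, and of members' most alike genes 3. Marker genes given by name (Dpt, Pdgfra, Tcf21, Pi16), the further called list genes (Tlr2, Tlr4, Met, Bmp4), the RefSeq neighbours (Cenpp, Optc, Btg2) and the discussion of the second probe sets were added after their values were seen. Same-numbered arrays were not taken as pairs: their deviations from group means correlated by -0.095 to 0.126 over 6 pairs of groups, and the labels tie no number to a litter or day. Alternatives tried were other dim filters, the mean of probe sets, median and cyclic loess scaling, a trended robust prior, the replicate number as a block, a fit of the compared arrays alone, and leaving out each array in turn. Figures were drawn with matplotlib 3.10.9 (python 3.11.15).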

Additional observations from a re-analysis of the deposited data

How the results depend on the processing

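With 2 pools a group, calls in a single segment or genotype had little margin. The number of members called went from 2 to 4 for KO against WT in the ascending segment with a trended robust prior (Dcn and Aspn were added; that prior also added Aspn in the descending segment, adjusted p = 0.0127, and Dcn averaged over segments, adjusted p = 0.013) and to 0 with only the arrays compared in the fit. For ascending against descending it went from 1 to 0 in WT with only the arrays compared. In KO it went from 2 to 1, each time by the loss of Prelp, with no dim filter, with the mean of probe sets, with the replicate block, with only the arrays compared and with the other probe set, an alternative chosen after seeing the data. Averaged over genotypes it went from 1 to 2 with a filter at the 50th percentile and to 4 with the trended robust prior. With each array left out in turn, where the remaining array of a group borrowed its spread from the other groups, the counts ranged from 0 to 2 for KO against WT in the ascending segment, 0 to 3 in the descending segment, 3 to 5 averaged over segments, 0 to 1 for ascending against descending in WT and 0 to 1 in KO. Over all alternatives run, the averaged calls of Fmod (adjusted p from 4e-05 to 0.0128) and Ecm2 (5.79e-05 to 0.0116) were kept. Omd passed on average without WT descending replicate 2 (-0.47, adjusted p = 0.045). The replicate block, as numbers that were not shown to pair the arrays, changed no other member's call; with it Fmod gave 0.96 (adjusted p = 0.027) in the ascending segment.

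Signs turned only in differences that were not called. Ascending against descending, Bgn was 0.01 in WT with cyclic loess, -0.02 in KO and averaged with the other probe set and -0.01 averaged with the mean of probe sets. Ecm2 was 0.00 in WT and 0.02 averaged with arrays shifted to 1 median, and 0.01 averaged with cyclic loess. The interaction was -0.01 for Bgn with cyclic loess and with the other probe set, and 0.00 for Ogn with arrays shifted to 1 median. With each array left out, KO against WT ranged from -0.08 to 0.03 for Lum in the ascending segment, and in the descending segment from -0.16 to 0.04 for Ogn and from -0.46 to 0.14 for Omd. Ascending against descending ranged in WT from -0.04 to 0.01 for Bgn, -0.03 to 0.08 for Lum, -0.13 to 0.06 for Prelp, -0.17 to 0.14 for Ecm2 and -0.26 to 0.34 for Omd. In KO it ranged from -0.17 to 0.01 for Aspn and -0.04 to 0.06 for Ecm2. Averaged over genotypes it ranged from -0.01 to 0.01 for Bgn, -0.08 to 0.08 for Ecm2 and -0.27 to 0.03 for Omd. The interaction ranged from -0.26 to 0.15 for Fmod, -0.01 to 0.13 for Lum, -0.11 to 0.10 for Ogn, -0.11 to 0.07 for Aspn, -0.13 to 0.18 for Ecm2 and -0.28 to 0.09 for Podn. The cause of these shifts was not tested. Of 1062 members' values recomputed, 961 kept their direction and their side of the threshold. Most of the 1062 were of differences that were not called with the main settings. Leaving out an array of a group outside a comparison also cannot move its difference. This count therefore does not measure how stable the calls were, and those in a single segment or genotype had little margin, as given above.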
